A study of Drosophila melanogaster with 2 samples.

Results

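The genes described here are 10 genes of the PIWI-interacting RNA (piRNA) pathway of Drosophila melanogaster: the PIWI-family Argonaute genes piwi, aub and AGO3, the helicase genes armi and spn-E, the Tudor domain genes krimp, qin, tej and papi, and the nuclease gene zuc. They were chosen by name, through the array annotation that assigns a probe set to 1 gene, with earlier results of these data known. All 10 had such a probe set, out of 11983 genes with one. qin had 2 probe sets and each of the others had 1, which makes 11 probe sets. No member was left without a measurement and no filter on low signals was applied.

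The series consists of 2 Affymetrix Drosophila Genome 2.0 arrays, replicates 1 and 2 of a single group. The cells were S2 cells, an established embryonic line with properties of macrophage-like blood cells (hemocytes), kept for 8 days with double-stranded RNA (dsRNA) against green fluorescent protein (GFP), a sequence with no counterpart among fly genes. No other allele, agent or time point enters the group. Nothing in the labels says whether the duplicates were separate cultures, so their spread may be technical, and without another condition no effect of the dsRNA was measured.

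piRNAs are small RNAs, longer than siRNAs, that guide PIWI-family proteins to transposon transcripts, and the pathway is known mainly from the germline and the supporting somatic cells of the fly gonad. Precursors are cut on the outer surface of mitochondria by the nuclease Zucchini with the help of Armitage and Papi. In the germline, Aubergine and AGO3 then amplify piRNAs by cutting transcripts of opposite strands in turn, in a perinuclear structure called nuage where Krimper, Qin, Tejas and Spindle-E also reside. Piwi itself acts in the nucleus, where it directs transcriptional silencing, and in the somatic cells of the ovary it works without Aubergine and AGO3.

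A signal is the linear intensity that was deposited for a probe set. Levels are given for each array and as mean ± SD with n = 2. Background was judged from 125 probe sets that measure 112 receptor genes for odours and tastes, a gene class known from sensory neurons, and the 95th percentile of their signals served as the limit of each array. It stood at 146 on replicate 1 and 136 on replicate 2. A gene counted as detected when any of its probe sets passed the limit of both arrays. By this rule 5 of the 112 receptor genes were themselves detected, a count that follows largely from setting the limit on their own probe sets. On each array 1 receptor probe set was at or above armi, which had 9.82 and 9.39 times the limit on replicates 1 and 2. Probe sets respond differently to the same amount of RNA, so signals are compared with the limit and between arrays, and not from gene to gene.

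Of the 10 genes, 8 were detected and piwi and qin were not. The share detected among all 11983 genes was 49.1%, and it was 49.2% among the genes that, like 9 of the 10, have a single probe set, of which 8 were detected here. Each of the 8 detected genes passed on both arrays by a margin wider than the difference between its duplicates. The lowest margin was that of zuc, at 1.96 and 2.42 times the limit on replicates 1 and 2, and the widest that of aub, at 20.5 and 21.7 times.

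**Figure D1:**
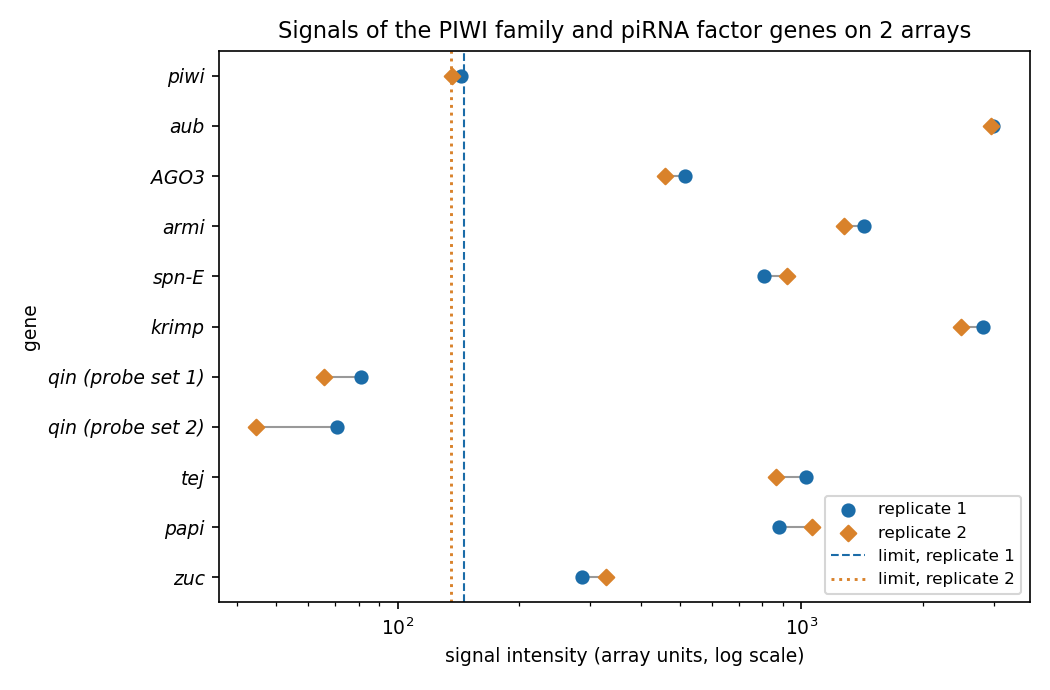
Signal intensity (log axis) of each of the 11 probe sets on replicate 1 (circles) and replicate 2 (diamonds), joined by a line, with the background limit of each array as a vertical line. The 8 detected genes lie to the right of both limits, piwi lies on them at 144 and 136, and both qin probe sets lie to the left.

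The PIWI-family genes encode the proteins that carry piRNAs. aub (probe set 1631626_at), whose product receives piRNAs mostly antisense to transposons, had signals of 2986 on replicate 1 and 2951 on replicate 2 (2968 ± 24.7, SD, n = 2). No receptor probe set reached that level on either array. AGO3 (probe set 1640830_at), which encodes the partner of Aubergine in the amplification cycle, had 514 and 460 (487 ± 37.9), with 1 of the 125 receptor probe sets above it on each array. Both genes were therefore clearly separated from the limit on either array.

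The signal of piwi (probe set 1641305_at) was at the limit itself, with 144 on replicate 1 and 136 on replicate 2 (140 ± 5.54, n = 2). Replicate 1 was below its limit, at 143.72 against 145.98, and replicate 2 passed by a small margin, at 135.88 against 135.69. Among the receptor probe sets 8 of 125 were at or above piwi on replicate 1 and 7 on replicate 2. The duplicates thus fell on opposite sides of the limit although they differed by only -0.08 on the log2 scale. With the limit at the 90th percentile piwi counted as detected, giving 9 of the 10 genes against 51.6% of all genes, and at the 99th percentile the count was 8 against 43.8%. A low level of piwi RNA would not be detectable above background at this signal.

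**Figure D2:**
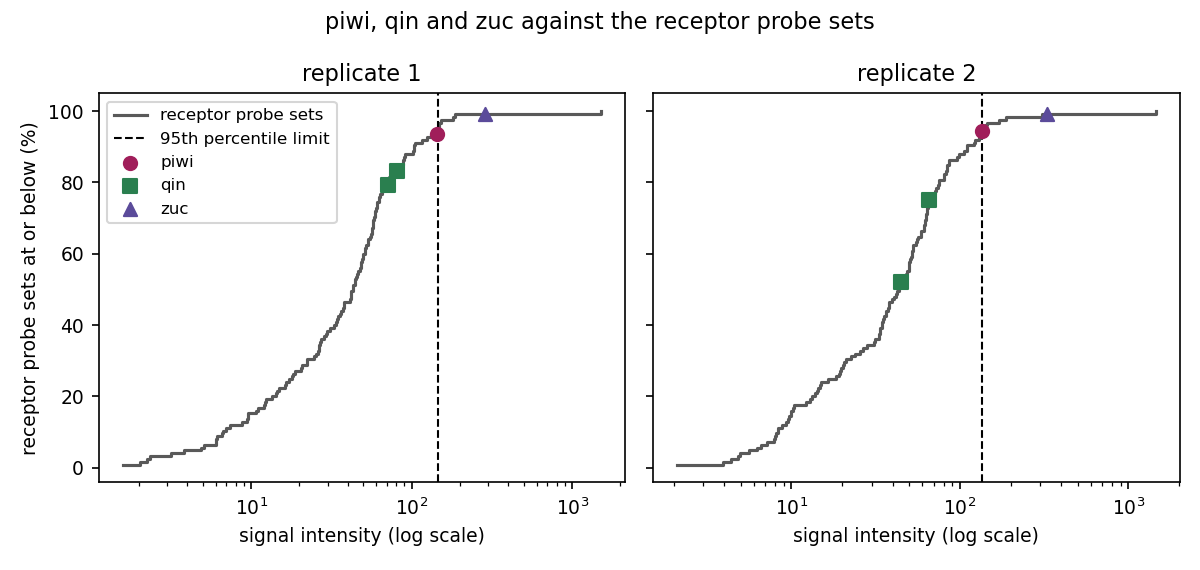
Cumulative share (%) of the 125 receptor probe sets against signal intensity (log axis) on replicate 1 and replicate 2, with the 95th percentile limit as a dashed line. piwi sits at the limit, the 2 qin probe sets sit within the receptor distribution, and zuc, the detected gene nearest the limit, lies to its right on both arrays.

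Both helicase genes were detected. armi (probe set 1623907_at), an RNA helicase gene needed to bring precursors to the mitochondrial nuclease, had signals of 1434 and 1274 (1354 ± 113, n = 2). spn-E (probe set 1636886_at), which encodes a helicase with a Tudor domain that is found in nuage, had 807 and 922 (864 ± 80.9). Neither gene came near the limit, and they differed between the arrays in opposite directions, armi being lower on replicate 2 and spn-E higher.

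Tudor domain proteins bind methylated arginines of PIWI proteins and hold the processing machinery together. krimp (probe set 1636625_at), which brings AGO3 and Aubergine together, had signals of 2816 and 2486 (2651 ± 234, n = 2), and no receptor probe set reached it. tej (probe set 1638729_at), a nuage assembly gene, had 1026 and 864 (945 ± 114). papi (probe set 1625175_s_at), whose product sits on mitochondria and assists the trimming of piRNA ends, had 878 and 1062 (970 ± 130). The papi probe set carries the suffix that the manufacturer uses for probes shared by several transcripts, although the annotation lists no other gene for it. With such probe sets left out, papi has no measurement and 7 of the other 9 genes were detected, beside 46.3% of all genes.

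qin was the exception among the Tudor domain genes. Its product restrains Aubergine from pairing with itself in the amplification cycle. The first of its probe sets, 1625415_at, had signals of 80.8 and 65.7 (73.2 ± 10.7, n = 2) and the second, 1637536_at, 70.8 and 44.5 (57.7 ± 18.6). These lay inside the range of the receptor probe sets, of which 21 and 31 were at or above the first probe set on replicates 1 and 2, and 26 and 60 at or above the second. The 2 probe sets gave the same call on both arrays. qin stayed below the limit under every alternative limit and scaling tried. It came nearest with a limit from the highest non-fly control probe set, where the lower of its array ratios of signal to limit was 0.93.

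zuc (probe set 1634161_at) encodes the endonuclease that cuts precursors into piRNA-sized pieces. It had signals of 286 and 328 (307 ± 29.9, n = 2), and 1 receptor probe set lay above it on each array. The gene passed on both arrays also with the 99th percentile limit, which was 184 on replicate 1 and 279 on replicate 2.

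Other genes of the pathway were examined by role, from lists drawn up by known function, also with earlier results of these data known, so the counts are a description. Of 45 such genes 42 were measured and 41 of them detected, beside 49.1% of all genes. Hsp83, arx and egg, which no single-gene probe set covers, were not analysed here. Among 18 measured genes of processing and loading 17 were detected. vret, a Tudor domain gene of piRNA biogenesis, had 1200 and 1129 (1165 ± 50.7, n = 2), fs(1)Yb, a helicase-like gene of the somatic ovarian pathway, had 1395 and 1037 (1216 ± 253), and its relative SoYb had 222 and 217 (220 ± 3.58). The undetected one was vas, which encodes the germline helicase Vasa that organises nuage, with 31.0 and 51.1 (41.1 ± 14.2). Of the genes linked to nuage in the descriptions above, vas and qin were below the limit while aub, AGO3, krimp, tej and spn-E were above it. Other genes in the lists whose products may also reside in nuage were not tallied.

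All 10 measured genes for the nuclear silencing steps that follow Piwi were detected, where the share of all genes was 49.1%. Panx, which links Piwi on a nascent transcript to the silencing machinery, had signals of 627 and 568 (597 ± 41.5, n = 2). Its partners nxf2 and Nxt1 had 1361 and 1253 (1307 ± 76.5) and 3974 and 4167 (4071 ± 136). The silencing partners were thus above the limit on both arrays, whereas piwi lay at it. All 14 measured genes for the transcription and export of germline piRNA clusters were also detected. rhi, the HP1-like gene that marks these clusters, had 518 and 484 (501 ± 24.0), and its partners del and cuff had 2854 and 2539 (2696 ± 223) and 277 and 203 (240 ± 52.4). Many of the genes in these lists also serve general functions such as mRNA export or transcriptional repression. Examples are Nxt1, CoRest, Hel25E, tho2, Hpr1, thoc5, thoc6, thoc7 and CtBP. The counts of these lists and of all 42 genes were not split by such functions. Whether genes specific to the piRNA pathway were detected more often than the share of all genes was therefore not tested. Nxf3 was detected by 1 of 2 probe sets, close to the limit at 158 and 144, and 1 of 3 CoRest probe sets was below it. With the 99th percentile limit 36 of the 42 were detected, beside 43.8% of all genes. Besides vas, the genes that failed this limit on at least 1 array were SoYb, daed, cuff, Nxf3 and thoc6.

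**Figure D3:**
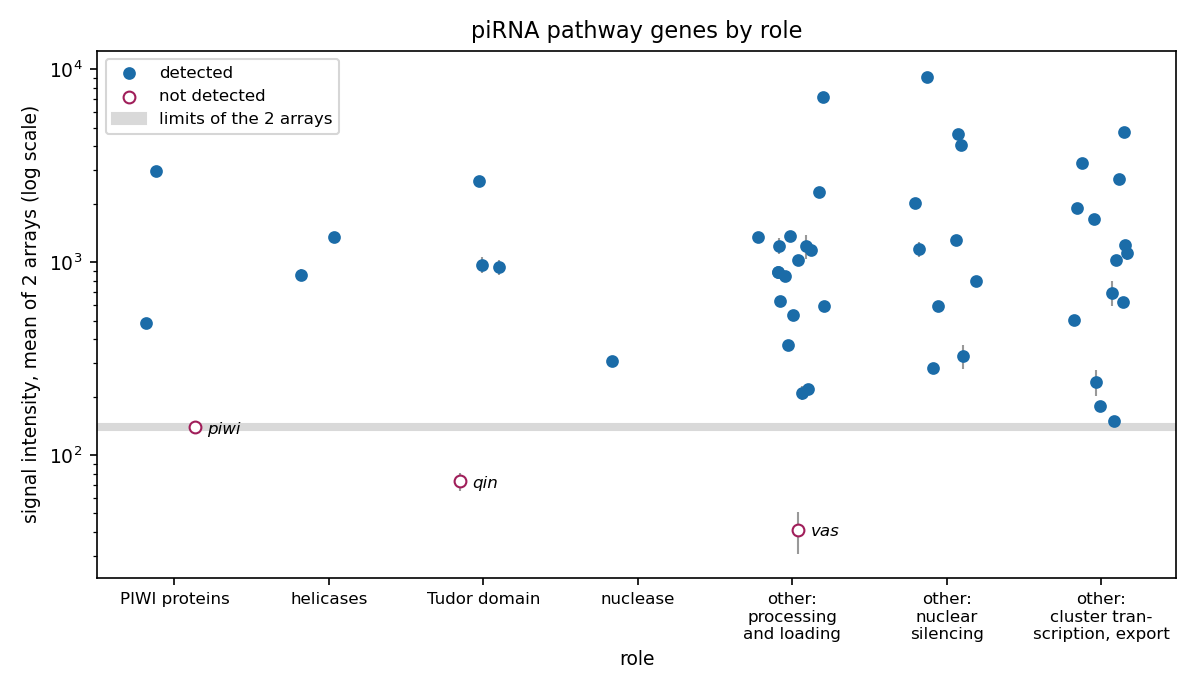
Mean signal intensity of 2 arrays (log axis) for the 10 genes and the 42 other measured pathway genes by role, 1 point per gene at its probe set with the highest mean, with a line between the array values and the background limits as a grey band. Filled points were detected and open points were not. piwi, qin and vas are the 3 open points, and heights of different genes are not comparable.

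Markers of hemocytes and of other cell types were read on the same arrays, where 49.1% of all genes were detected. Of 10 measured hemocyte markers 9 were detected, including Hml (4509 ± 520, n = 2) and the blood cell transcription factor gene srp (8647 ± 142). Pxn was detected through probe set 1640097_at, while its probe set 1629847_at was below the limit on both arrays, at 139 and 110. The hemocyte marker eater passed at 1.60 and 1.68 times the limit on replicates 1 and 2, and NimC1 was below it, at 96.6 and 127. Of 7 measured germline markers 2 were detected, bam (4293 ± 417) and osk (223 ± 3.90, by 1 of 3 probe sets), while vas, nanos, orb, bgcn and zpg were below the limit. Of 8 measured genes of the ovarian soma only fs(1)Yb was detected, and tj, the transcription factor gene that drives piwi in those cells, was at 35.5 and 7.56. Of 5 measured testis genes only zfh1 was detected, which is also active in blood cell precursors. Both arrays were of S2 cells, so these markers describe signals of that line and not shares of cell types. How the markers relate to the signals of the 8 detected genes was not tested.

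The series title concerns transcription from both strands, and gene overlaps were therefore looked up in RefSeq's gene annotation of fly genome release 6, without strand. Other annotated genes overlapped 6 of the 10, 11 genes in all, of which 8 were measured and 4 detected, a share close to the 49.1% of all genes. piwi overlapped SCAR, an actin nucleation gene, whose signals were 4466 and 4110 while piwi itself was at the limit. aub overlapped TTLL4A (300 and 232), and spn-E overlapped Pbp45 (268 and 260), with both genes of each pair above the limit. qin, a long gene, overlapped 6 others, of which 5 were measured. Of these CG31224, at 1220 and 1276, was detected and 4 were below the limit, as was qin. piwi and aub lie near each other on 2L. CG12253 (192 and 224) lies between them, and TTLL4A lies partly between them and overlaps aub. Both CG12253 and TTLL4A were above the limit. The probe sets of these genes were annotated separately, and whether transcription of one gene affects another was not tested.

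For the detected genes the log2 difference, replicate 2 minus replicate 1, ran from -0.25 for tej to 0.27 for papi, with 3 genes higher and 5 lower on replicate 2. Its median over the 8 probe sets was -0.09 and its SD 0.21, beside a median of -0.00231 and an SD of 0.23 over all 7262 detected probe sets. aub differed least, by -0.02. AGO3 (-0.16), armi (-0.17), krimp (-0.18), spn-E (0.19) and zuc (0.20) each stayed within 1 SD of the probe sets of like signal, taken as 4 equal classes by mean signal. Only tej and papi lay beyond it, 2 of 8, where 25.4% of all detected probe sets did. In their signal class 82.4% of probe sets differed by less than tej and 86.3% by less than papi. With 1 group of 2 arrays these differences have no test. Ranking other genes by likeness of pattern was not possible with 2 arrays of 1 condition.

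**Figure D4:**
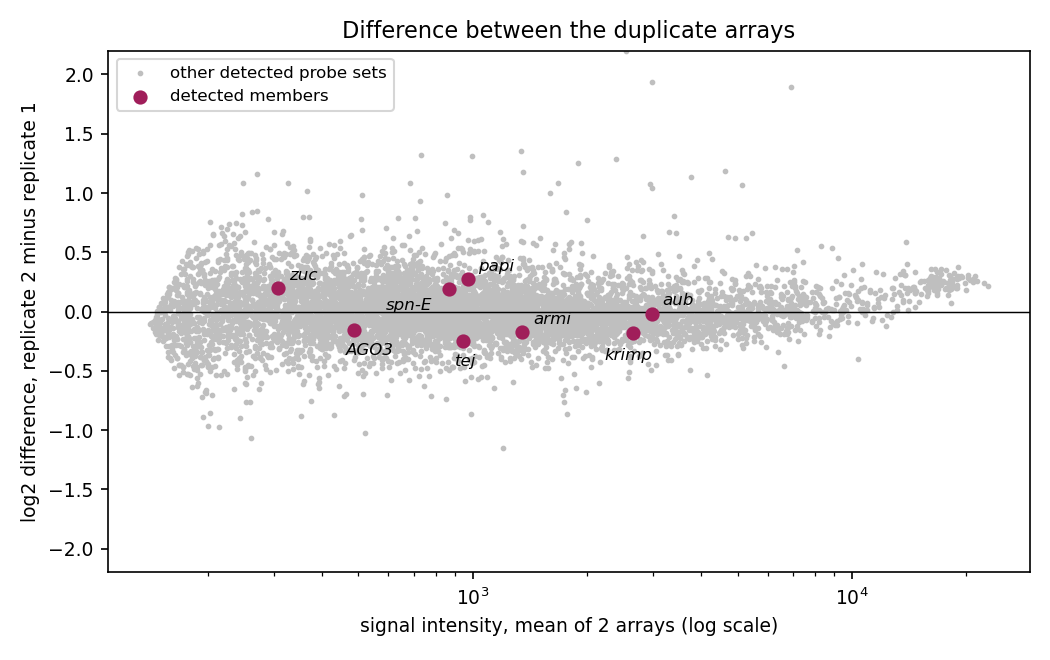
Log2 difference of replicate 2 minus replicate 1 against mean signal intensity (log axis) for 7262 detected probe sets, with the 8 detected piRNA genes as large named points. The named points lie between -0.25 and 0.27, inside the cloud of the other probe sets.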

How the data were processed

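RNA from 2 S2 cell samples of 1 group was hybridised to 1 array each. The deposited values are linear intensities, 1 for each probe set on each array, with no detection call. How the authors summarised probes and scaled arrays, and any genome build, is not given in the sources used here. Medians were 70.8 and 73.8 over 18952 probe sets, and no probe set had the same value on both arrays. Signals were used as deposited. The platform annotation assigned 13647 probe sets to 1 gene, and symbols were updated by gene identifier (11894 of 11983 matched). Every probe set of the 10 members was used. Of each other role list, the first 3 measured genes and those against the list's majority were named; genes named beyond that, markers and neighbours included, were chosen after their values were seen. Before log2 differences were taken, a floor of 1 was applied to the signals. Members and lists were chosen with earlier results of these data known. No test was run, since there is 1 group; the number of arrays limits the precision. Planned sequence features were not computed, as no sequences were used here. Alternatives were other limits and scalings, each array alone, and rules on probe sets. Work was done in Python 3.11.15 with pandas 2.3.3 and numpy 2.4.6.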

Additional observations from a re-analysis of the deposited data

How the results depend on the processing

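The count of detected members was 8 or 9 of 10 under all alternatives but the last named below, where it was 7 of 9, and that of the other pathway genes was 36 to 41 of 42, or 36 of 37 in that last one. piwi alone changed side, in 3 of 8 alternatives: the lower of its array ratios of signal to limit was 1.235 at the 90th percentile and 1.69 with a limit from the highest of 50 non-fly control probe sets, and the ratio was 1.001 without replicate 1. Median scaling leaves every call as it was by construction. The share of all genes detected was 51.6% with the 90th and 43.8% with the 99th percentile limit, 55.5% with the control-based limit, and 46.6% when all of a gene's probe sets were required to pass. It was 50.6% without replicate 1 and 49.7% without replicate 2. With probe sets of suffix _s_at or _x_at left out, chosen after seeing the data, it was 46.3%. The median log2 difference of the members ran from -0.16 with all their probe sets to -0.09 after quantile normalization. No paired analysis was possible because there is only 1 group.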
